A study of Mus musculus with 18 samples.

Results

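The 8 genes described here, Cpt1a, Acadm, Hadha, Acaa2, Ehhadh, Pdk4, Angptl4 and Plin2, are classic targets of the nuclear receptor PPAR alpha. Most act in fatty acid oxidation or its control, while Angptl4 inhibits lipoprotein lipase and Plin2 coats lipid droplets. The 8 genes were chosen by gene name from the 55335 genes of a count table of mouse small intestinal crypts. All 8 passed the filter on low counts and are among the 21349 genes tested. None of the 8 encodes an enzyme of ketone body synthesis, so ketone body genes are given beside them as a separate list. The study deleted the arginine methyltransferase gene Prmt1 from the intestinal epithelium of adult mice and sequenced ribosome-depleted total RNA of isolated crypts. The KO mice carried Prmt1 fl/fl alleles and the Vil-CreERT2 transgene, in which the villin promoter drives a tamoxifen-activated Cre, so that recombination is limited to epithelial cells that express it. The WT mice were age- and sex-matched littermates with the same fl/fl alleles and no Cre. Mice of both genotypes were 8 to 12 weeks old and received 2 mg of tamoxifen per injection, and crypts were collected 2, 7 or 14 days after the first injection. Day 2 mice had received 2 injections, and day 7 and day 14 mice had received 5. With 3 mice in each of the 6 groups of genotype and day there were 18 libraries, and the mice differ between days. KO and WT were compared within each day, to ask which transcripts differ after induced loss of Prmt1. Only KO mice carried Cre, so loss of Prmt1 and activity of Cre cannot be told apart in these comparisons. The paper proposes that toxicity of activated Cre might underlie transient changes at day 7. The KO effects were then compared between days, and the WT groups over time.

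Fatty acid oxidation turns fatty acids into acetyl-CoA inside mitochondria, with a related route for very long chains in peroxisomes. PPAR alpha binds fatty acids and, paired with RXR, activates genes of uptake, oxidation and ketone body synthesis, as in fasting. In the small intestine this programme is known in absorptive enterocytes, which take up dietary fat, and in crypt stem and progenitor cells, where it has been tied to the response to fasting and to fat-rich diets.

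Levels are library-size normalised counts (CPM) with trimmed-mean scaling of the totals, and differences are log2 fold changes. SE is the standard error of a log2 fold change. A gene is called when its p from edgeR, adjusted over the 21349 genes tested, is under 0.05. Prmt1 itself served as the check of the genotype labels. At day 2 its level was 27.1, 26.5 and 26.1 CPM in the WT libraries and 15.8, 13.1 and 14.3 CPM in the KO libraries. At day 7 it was 22.3, 25.9 and 23.1 CPM in WT and 13.6, 17.4 and 16.4 CPM in KO. At day 14 it was 25.2, 30.6 and 20.2 CPM in WT and 16.1, 14.9 and 15.1 CPM in KO. Every KO library lay below every WT library of its day, and Prmt1 transcripts remained in all KO libraries. The log2 fold change was -0.89 (SE 0.14, edgeR adjusted p = 0.0264) at day 2, -0.59 (SE 0.14, edgeR adjusted p = 0.00675) at day 7 and -0.72 (SE 0.14, edgeR adjusted p = 0.00329) at day 14. The day 2 call ended when any of the 6 day 2 libraries was left out, with log2 fold changes of -0.95 to -0.82 and adjusted p of 0.0816 to 0.183. It also ended in a model of only the groups compared (adjusted p = 0.0939) and with a replicate block shared by the days. The day 7 call ended without KO day 7 replicate 1 (log2 fold change -0.47, adjusted p = 0.0655).

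The libraries held 12844642 to 31493484 counts. Group medians were 24557023 for WT and 16873054 for KO at day 2, 20162316 and 23937724 at day 7, and 21924295 and 16251399 at day 14. The labelled tissue was checked against epithelial markers. Krt8 averaged 1912 CPM, Vil1 1275 CPM, Epcam 1024 CPM and Cdh1 762 CPM over the 18 libraries, and none of the 6 epithelial markers was at 0. Transcripts of differentiated enterocytes were also abundant. Apoa4, an apolipoprotein gene of absorptive cells, averaged 3014 CPM and was the most abundant of 12 enterocyte markers per length. Lep, which defines adipocytes, was at 0 in all 18 libraries, and Adipoq averaged 0.0106 CPM. In bulk RNA, fewer cells of a type and less RNA per cell cannot be told apart.

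Per kb of exon, Acaa2 had the highest mean level of the 8 genes over the 18 libraries, at 80.3 CPM per kb. Cpt1a had 32.9 CPM per kb, Hadha 29, Ehhadh 23.1 and Acadm 19.4. Plin2 had 13.6 CPM per kb, Angptl4 5.34 and Pdk4 3.92. The enzymes of oxidation were thus the more abundant transcripts, and the secreted inhibitor and the kinase the least abundant. The highest library exceeded the lowest 1.87-fold for Cpt1a and 1.84-fold for Acadm, but 5.46-fold for Angptl4 and 9.15-fold for Pdk4. The coefficient of variation over libraries ran from 16.8% for Cpt1a to 55.5% for Pdk4. By group mean, WT day 2 stood highest for 7 of the 8 genes, and KO day 7 for Angptl4. For each of the 8 genes, every group overlapped the next group in the order of means.

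**Figure D1:**
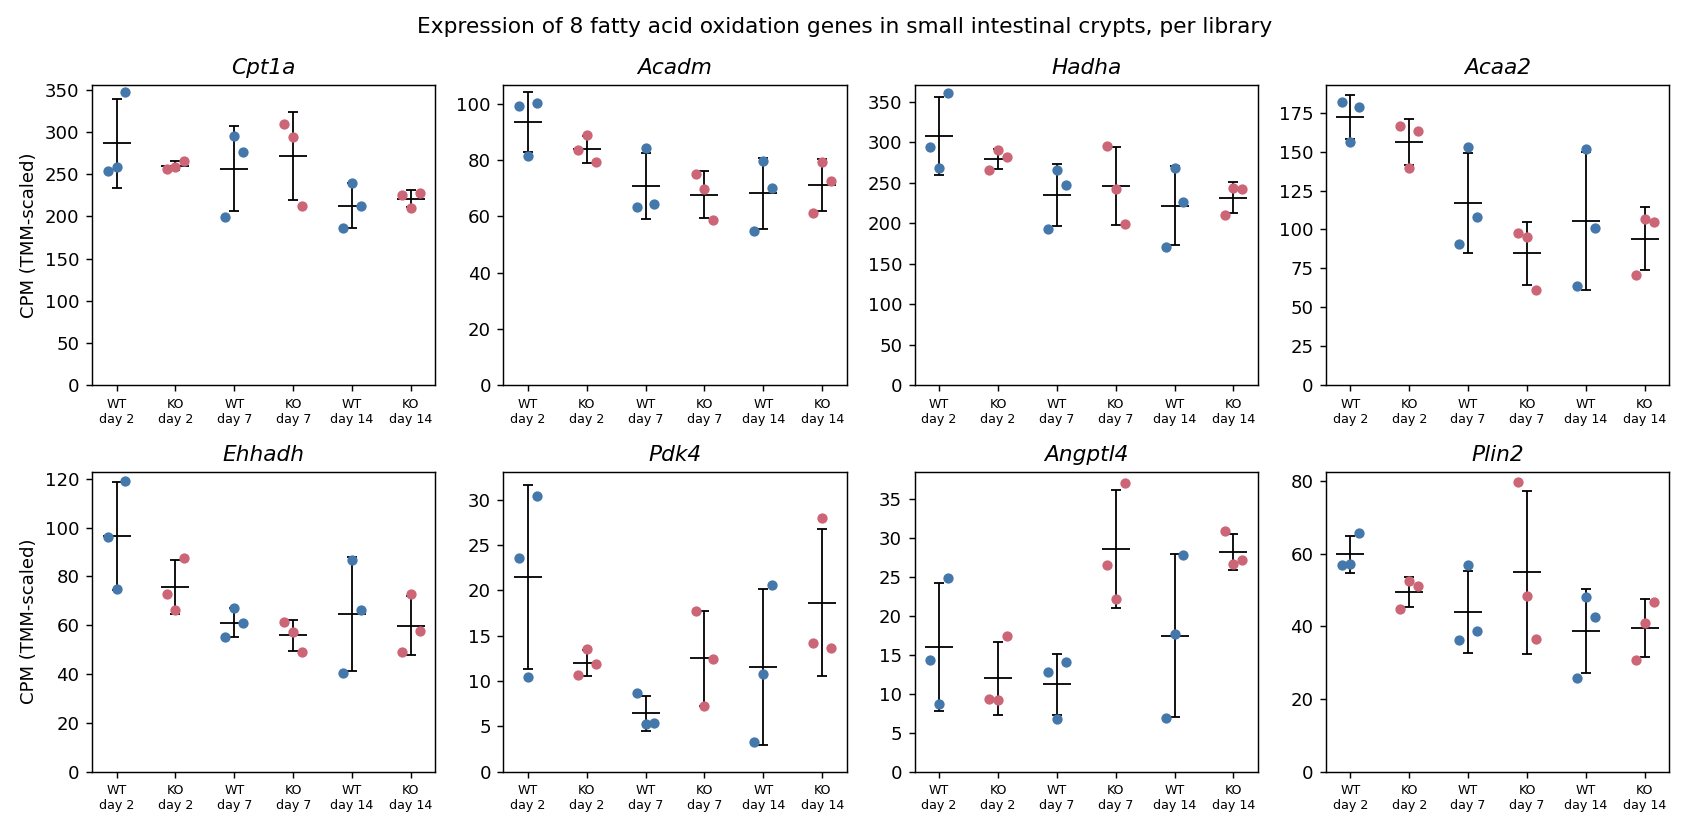
CPM of each of the 8 genes (y axis, linear, from 0) in the 6 groups (x axis), with a point per library and a bar for the mean with its SD over 3 mice. Angptl4 lies between 22.2 and 37.0 CPM in the KO libraries of day 7 and between 6.77 and 14.1 CPM in the WT libraries of that day.

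Cpt1a encodes the outer-membrane carnitine palmitoyltransferase that commits long-chain fatty acids to mitochondrial entry. At day 2 its level was 254, 258 and 348 CPM in WT and 256, 259 and 266 CPM in KO. At day 7 it was 199, 295 and 276 CPM in WT and 309.8, 294 and 213 CPM in KO. At day 14 it was 186, 239.8 and 212 CPM in WT and 226, 210.4 and 228 CPM in KO. The genotypes overlapped on every day, and 1 WT day 2 library was the highest of all 18. The KO against WT log2 fold change was -0.14 (95% confidence interval -0.51 to 0.23) at day 2, 0.08 (-0.28 to 0.45) at day 7 and 0.06 (-0.31 to 0.42) at day 14. Single WT libraries turned each direction: dropping replicate 3 at day 2 gave 0.01, dropping replicate 1 at day 7 gave -0.07, and dropping replicate 1 at day 14 gave -0.02.

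Acadm encodes the medium-chain acyl-CoA dehydrogenase, the opening step of a cycle of oxidation for chains of middle length. Its level ran from 79.4 to 100.4 CPM over the 6 day 2 libraries and from 54.7 to 84.3 CPM over the 12 later ones. Its KO against WT log2 fold change was -0.16 at day 2, -0.06 (95% interval -0.38 to 0.26) at day 7 and 0.06 (-0.27 to 0.38) at day 14, with overlapping genotypes on each day. Its day 7 value turned to 0.06 without KO day 7 replicate 3 and 0.08 without WT day 7 replicate 2, and that of day 14 to -0.01 without KO day 14 replicate 2 and -0.07 without WT day 14 replicate 1.

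Hadha encodes the alpha subunit of the mitochondrial trifunctional protein, which carries the hydratase and dehydrogenase steps for long chains. Its level was 294, 268 and 361 CPM in WT day 2, 192, 266 and 247 CPM in WT day 7 and 171, 268 and 226 CPM in WT day 14. In KO it was 266, 291 and 282 CPM at day 2, 295, 243 and 199 CPM at day 7 and 209.7, 243 and 242 CPM at day 14. The genotypes overlapped on each day, with the lowest level of all in 1 WT day 14 library. Its KO against WT log2 fold change was 0.06 (95% interval -0.32 to 0.44) at day 7 and 0.06 (-0.32 to 0.44) at day 14. Leaving out replicate 1 of KO or WT day 7 turned the former to -0.07 or -0.06, and leaving out WT day 14 replicate 1 turned the latter to -0.09. Hadha lies on chromosome 5 at 30118304 to 30155162 on the minus strand. Hadhb, which encodes the beta subunit with the thiolase activity, starts beside it at 30155248 on the plus strand. The Hadhb level was 90.7, 146 and 118 CPM in WT day 7 and 125, 111 and 76.9 CPM in KO day 7, with a log2 fold change of -0.18 (95% interval -0.57 to 0.21). Hadha shares 75 exon bases with Garem2 on the other strand, whose mean count was 16.1 against 5395 for Hadha.

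Acaa2 encodes the mitochondrial 3-ketoacyl-CoA thiolase, which releases acetyl-CoA at the last step of the cycle. At day 2 its level was 182, 156 and 179 CPM in WT and 167, 139.5 and 163 CPM in KO. On day 7 the values were 90.7, 153 and 108 CPM in WT and 97.6, 95.2 and 61.2 CPM in KO. On day 14 the values were 63.4, 152 and 101 CPM in WT and 71, 106 and 105 CPM in KO. The 3 KO day 7 libraries sat low, but 1 WT library of that day lay below 2 of them. The day 7 log2 fold change was -0.47 (95% interval -1.02 to 0.08, edgeR adjusted p = 0.25) and did not pass. Leaving out WT day 7 replicate 2 gave -0.23, and leaving out KO day 7 replicate 3 gave -0.26.

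Ehhadh encodes the peroxisomal bifunctional enzyme, with hydratase and dehydrogenase activities in a single protein. Its level was 96, 74.9 and 119 CPM in WT day 2, 55.4, 67 and 61 CPM in WT day 7 and 40.6, 86.8 and 66.5 CPM in WT day 14. In KO it was 72.9, 66.2 and 87.7 CPM at day 2, 61.4, 57.4 and 49 CPM at day 7 and 49.1, 72.7 and 57.7 CPM at day 14. The genotypes overlapped on each day. Its KO against WT log2 fold change was -0.35 at day 2, -0.13 (95% interval -0.59 to 0.33) at day 7 and -0.12 (-0.58 to 0.35) at day 14. Its day 14 value turned to 0.02 without KO day 14 replicate 1 and to 0.16 without WT day 14 replicate 2.

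Pdk4 encodes a kinase that inhibits the pyruvate dehydrogenase complex and so spares glucose when fat is oxidised. At day 2 its level was 23.6, 10.4 and 30.4 CPM in WT and 10.7, 13.5 and 11.9 CPM in KO. The day 7 levels were 8.67, 5.3 and 5.34 CPM in WT and 17.7, 7.3 and 12.4 CPM in KO. The day 14 levels were 3.32, 10.7 and 20.5 CPM in WT and 14.2, 27.9 and 13.7 CPM in KO. The 3 WT day 14 libraries lay far apart from each other, and the genotypes overlapped on every day. The log2 fold change was -0.84 (95% interval -1.97 to 0.29) at day 2, 0.94 (-0.23 to 2.10) at day 7 and 0.66 (-0.47 to 1.80) at day 14. It was -0.51 at day 2 without WT day 2 replicate 3 and 0.62 at day 7 without KO day 7 replicate 1. Its day 14 value was 0.26 without KO day 14 replicate 2 or WT day 14 replicate 1, and dropping replicate 3 of the latter group gave 1.36. A test of the difference between the day 7 and day 2 effects gave 1.78 (95% interval 0.16 to 3.40, edgeR adjusted p = 0.229) and did not pass.

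Angptl4 encodes a secreted inhibitor of lipoprotein lipase. At day 2 its level was 14.3, 8.72 and 24.9 CPM in WT and 9.39, 9.24 and 17.4 CPM in KO. By day 7 the level was 12.8, 6.77 and 14.1 CPM in WT and 26.5, 22.2 and 37 CPM in KO. By day 14 the level was 6.87, 17.7 and 27.8 CPM in WT and 30.8, 26.7 and 27.1 CPM in KO. At day 7 all 3 KO libraries lay above all 3 WT libraries, and at day 14 the KO libraries were close together while the WT ones spread below and into their range. The log2 fold change was 1.33 (SE 0.46, 95% interval 0.36 to 2.31) at day 7 and 0.68 (95% interval -0.28 to 1.64) at day 14. The day 14 value was 0.32 without WT day 14 replicate 1 and 1.18 without replicate 3 of that group. With edgeR the day 7 difference missed the threshold (adjusted p = 0.0586). DESeq2 called it (log2 fold change 1.35, adjusted p = 0.0309), and so did edgeR with a mean count of at least 50 (adjusted p = 0.0387), with only the groups compared in the model (0.0094), with a replicate block (0.0117) and with that block set within each day (0.0184), the last chosen after seeing the data. The other settings gave adjusted p of up to 0.138, and leaving out a library gave log2 fold changes of 1.08 to 1.52 with adjusted p of 0.0694 to 0.189. The test of the difference between the day 7 and day 2 effects gave 1.73 (95% interval 0.36 to 3.11, edgeR adjusted p = 0.161).

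Plin2 encodes a protein that coats lipid droplets. At day 2 its level was 56.8, 57.1 and 65.7 CPM in WT and 44.7, 52.5 and 51.1 CPM in KO. The day 7 libraries held 36.4, 57.1 and 38.8 CPM in WT and 79.9, 48.4 and 36.5 CPM in KO. The day 14 libraries held 25.8, 48 and 42.6 CPM in WT and 30.8, 41.1 and 46.6 CPM in KO. At day 2 the KO libraries lay below the WT libraries without overlap, by a small margin, and at day 7 a single KO library was the highest of all 18. The log2 fold change was -0.28 (95% interval -0.82 to 0.27) at day 2, 0.32 (-0.23 to 0.87) at day 7 and 0.02 (-0.54 to 0.57) at day 14. Without KO day 7 replicate 1 the day 7 value was -0.03, without KO day 7 replicate 3 it was 0.57, and the day 14 value was -0.11 without KO day 14 replicate 3 and -0.19 without WT day 14 replicate 1.

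At day 2, KO against WT, edgeR called 0 of the 8 genes, against 0.0328% of all genes tested (7 of 21349). The count over all genes was 3 or 4 when any day 2 library was left out. DESeq2 called 0 of the 8 too, and 0 had an unadjusted p under 0.05, where 3.33% of all genes tested did. The unadjusted count of the 8 was 2 with only the groups compared or with WT day 2 replicate 2 dropped. It was 1 with a replicate block within each day. All 8 log2 fold changes were below 0, with a median of -0.22, against a median of -0.0048 over all genes tested. Without WT day 2 replicate 3 the values of Cpt1a and Angptl4 turned to 0.01 and 0.06, and those of Hadha, Ehhadh and Pdk4 were -0.02, -0.18 and -0.51. Plin2 was the only one of the 8 whose groups did not overlap, where 8.16% of all genes tested had groups apart.

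At day 7, edgeR called 0 of the 8, against 17.3% of all genes tested (3690, of which 1517 higher and 2173 lower). Without KO day 7 replicate 1 the count over all genes was 2051. Angptl4 alone had an unadjusted p under 0.05, where 29.9% of all genes tested did, and DESeq2 called that 1 gene among 4135 of 21349. The unadjusted count was 2 with only the groups compared or with KO day 7 replicate 3 or WT day 7 replicate 1 dropped. It was also 2 with a replicate block within each day. Of the 8 log2 fold changes 5 were above 0 and 3 below, with a median of 0.07, against 0.02 over all genes tested. Angptl4 was the only one with separate groups, where 33.6% of all genes tested had them.

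At day 14, edgeR called 0 of the 8, against 7.92% of all genes tested (1690, of which 689 higher and 1001 lower). The count over all genes was 1091 without KO day 14 replicate 1 and 1041 without replicate 3. None of the 8 had an unadjusted p under 0.05, where 21.6% of all genes tested did. The unadjusted count of the 8 was 2 with WT day 14 replicate 3 dropped. It was 1 with a replicate block shared by the days and 1 with a block within each day. DESeq2 called 0 of the 8 among 2084 of 21349 genes. The median log2 fold change was 0.06, against 0.0022 over all genes tested, and the groups overlapped for all 8, where 26.5% of all genes tested had groups apart.

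**Figure D2:**
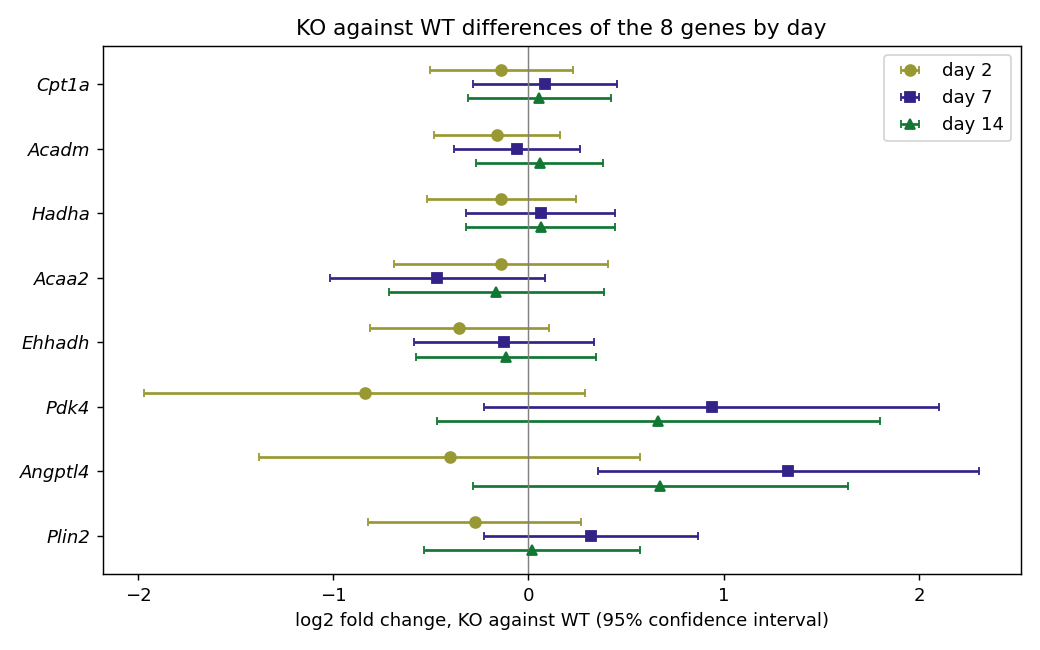
Log2 fold change of KO against WT (x axis) for the 8 genes (y axis) at days 2, 7 and 14, with 95% confidence intervals. There were 3 mice a group, and the spread is that of the model of all 18 libraries. The interval of Angptl4 at day 7 runs from 0.36 to 2.31, and those of the enzymes of oxidation span 0.

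The difference of the KO effects between days was tested directly. For day 7 minus day 2, edgeR called 0 of the 8, against 4.37% of all genes tested (934). DESeq2 called 0, and 2 had an unadjusted p under 0.05, Pdk4 and Angptl4, where 18.1% of all genes tested did. None had when WT day 2 replicate 3 was dropped, and 1 had when KO day 2 replicate 1 or 3, WT day 2 replicate 1, KO day 7 replicate 1 or WT day 7 replicate 3 was. With a replicate block within each day, 1 of the 8 had. Of the 8 values 7 were positive and 1 negative. The count over all genes fell to 556 or 500 when replicate 1 of KO or of WT at day 2 was dropped, to 431 when KO day 7 replicate 1 was, and to 584, 585 and 585 for replicates 1, 2 and 3 of WT day 7. For day 14 minus day 2, edgeR called 0 of the 8, against 1.04% of all genes tested (223), with 0 by DESeq2 and 0 at an unadjusted p under 0.05, where 11.9% of all genes tested had one. Dropping WT day 2 replicate 2 or WT day 14 replicate 3 made that 2 of the 8, and dropping KO day 2 replicate 3 made it 1, as did the fit at a mean count of at least 50. A replicate block, shared by the days or set within each day, also made it 1. The count over all genes became 143 when KO day 2 replicate 3 was dropped, 111 for WT day 2 replicate 1, 116 for KO day 14 replicate 1 and 132 for KO day 14 replicate 2. For day 14 minus day 7, edgeR called 0 of the 8, against 0% of all genes tested, with 953 genes at an unadjusted p under 0.05 and 2 called by DESeq2, and 0 of the 8 in either. Leaving out WT day 14 replicate 2 gave 2 called genes. The Angptl4 effect differed by -0.66 (95% interval -2.01 to 0.70) between days 14 and 7.

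The WT groups were compared over time. At day 7 against day 2, edgeR called 0 of the 8, against 0.553% of all genes tested (118). All 8 log2 fold changes were below 0, with a median of -0.47, against 0.01 over all genes tested. Cpt1a stood at -0.16, and at -0.01 once WT day 2 replicate 3 or WT day 7 replicate 1 was dropped. Angptl4 stood at -0.50, and at -0.04 once WT day 2 replicate 3 was dropped or -0.25 once WT day 7 replicate 2 was. Of the 8, 5 had an unadjusted p under 0.05, as did 22.4% of all genes tested. That count was 3 with DESeq2's size factors, without the 20 most abundant genes, at a mean count of at least 50 or with WT day 2 replicate 3 dropped, and 2 with WT day 2 replicate 1, WT day 7 replicate 1 or WT day 7 replicate 3 dropped. Among the 5 were Pdk4 at -1.73 (SE 0.54, edgeR adjusted p = 0.0975) and Ehhadh at -0.66 (SE 0.22, adjusted p = 0.0994). DESeq2 called 1 of the 8, Pdk4 (log2 fold change -1.73, adjusted p = 0.0332), among 1511 of 21349 genes. Without the low-count filter edgeR called 1, Ehhadh (-0.66, adjusted p = 0.0355), among 1012 of 39046 genes. Hadha, Acaa2, Ehhadh and Pdk4 had all WT day 7 libraries below all WT day 2 libraries, 4 of 8, where 28.4% of all genes tested had groups apart. The count over all genes depended on single libraries: leaving out WT day 2 replicate 1 or WT day 7 replicate 3 gave 0, leaving out WT day 2 replicate 3 gave 6, leaving out WT day 7 replicate 1 gave 10, and leaving out WT day 2 replicate 2 gave 535.

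At WT day 14 against day 2, edgeR called 0 of the 8, against 1.61% of all genes tested (343). DESeq2 called 0, and 6 had an unadjusted p under 0.05, as did 20% of all genes tested. That count of 6 became 2 when WT day 2 replicate 3 was dropped and 0 when WT day 14 replicate 1 was. Without WT day 14 replicate 2, edgeR called 1 of them, Acaa2 (log2 fold change -1.07, adjusted p = 0.0421), and in none of the other alternatives was any of the 8 called here. Dropping 1 of the WT day 2 libraries changed the count over all genes to 22 (replicate 1), 712 (replicate 2) or 61 (replicate 3), and dropping a WT day 14 library changed it to 47 (replicate 1) or 156 (replicate 3). Of the 8 log2 fold changes 7 were below 0, with a median of -0.53, against 0.0088 over all genes tested. Cpt1a stood at -0.43 (95% interval -0.80 to -0.06), Acadm at -0.46 (-0.78 to -0.13) and Plin2 at -0.62 (-1.17 to -0.07). Dropping WT day 2 replicate 3 took Cpt1a to -0.27. Angptl4, at 0.14 the only value above 0, turned to -0.15 once WT day 2 replicate 2 was dropped and to -0.33 once WT day 14 replicate 3 was. The groups did not overlap for 4 of the 8, Cpt1a, Acadm, Acaa2 and Plin2, where 23.8% of all genes tested had them apart. For WT day 14 against day 7, edgeR called 0 of the 8, against 0.0796% of all genes tested (17), with 0 by DESeq2 and 0 at an unadjusted p under 0.05, where 5.18% of all genes tested had one (1 of the 8 with WT day 7 replicate 1 dropped, and 2 with WT day 14 replicate 1 dropped). That count was 10 once WT day 7 replicate 1 was dropped, 1 once WT day 14 replicate 2 was, and 0 once any of the other 4 libraries was.

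A single library stood low in these comparisons. WT day 14 replicate 1, the shallowest of the 18, was the lowest of all 18 libraries for 6 of the 8 genes and below its group's mean for all 8. In an alternative chosen after seeing the data, WT day 14 against day 2 without it gave log2 fold changes of -0.32 for Cpt1a, -0.30 for Acadm, -0.30 for Hadha, -0.43 for Acaa2, -0.31 for Ehhadh, -0.44 for Pdk4, -0.38 for Plin2 and 0.53 for Angptl4, none of them called. The enterocyte markers moved in the direction of these values, other than that of Angptl4. Their summed level was 21930, 13380 and 30610 CPM in WT day 2, 12190, 12310 and 10480 CPM in WT day 7 and 4902, 10970 and 12760 CPM in WT day 14. In KO it was 17840, 22360 and 22750 CPM at day 2, 20660, 15100 and 14110 CPM at day 7 and 11270, 21170 and 15040 CPM at day 14. WT day 14 replicate 1 had the lowest sum and WT day 2 replicate 3 the highest, and that library was also the highest of 18 for 5 of the 8 genes. All 12 enterocyte markers were below 0 in WT day 7 against day 2, with a median log2 fold change of -1.03 and 0 called, and in WT day 14 against day 2, with a median of -1.12 and 3 called lower. None of the 12 was at 0 in all libraries. Their part in the result was not tested.

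Of the 9 genes of ketone body synthesis, use and transport, edgeR called 1 at day 7, Slc16a7, a monocarboxylate transporter, at -1.49 (SE 0.37, edgeR adjusted p = 0.00798), and 0 at days 2 and 14. Without KO day 7 replicate 1 the Slc16a7 call was lost (adjusted p = 0.0529). Slc16a7 counts were low, at 17 to 45 in KO day 7 and 40 to 132 in WT day 7. The list's median was 0.00 at day 7 and 0.09 at day 14, against 0.02 and 0.0022 over all genes tested. These medians, and the called shares over all genes tested of 17.3% at day 7 and 7.92% at day 14, are those to set beside each list below. For calls in WT the shares are 0.553% for day 7 and 1.61% for day 14, each against day 2.

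The receptors themselves were read in the same libraries. Ppara, the receptor for which the 8 genes are known, had a log2 fold change of -0.21 (95% interval -0.56 to 0.15) at day 2, -0.00 (-0.35 to 0.35) at day 7 and 0.15 (-0.20 to 0.51) at day 14. Pparg, a related receptor known for lipid storage, was 7.74, 7.09 and 8.98 CPM in WT day 7 and 15.7, 12.4 and 11.8 CPM in KO day 7. Its KO libraries all lay above its WT libraries at day 7, and the log2 fold change was 0.74 (SE 0.17, edgeR adjusted p = 0.00637), with 0.51 (adjusted p = 0.0847) at day 14. Ppard rose in WT between days 2 and 7, at 0.80 (SE 0.16, edgeR adjusted p = 0.0383), and between days 2 and 14, at 0.89 (SE 0.16, edgeR adjusted p = 0.0102). Since 0 genes were called in WT day 7 against day 2 without WT day 2 replicate 1 or WT day 7 replicate 3, no such WT call held there. Ppargc1a, a coactivator of mitochondrial genes, and Rxra, the partner of the receptors, were not called in any of the 9 comparisons. In the list of 18 receptors and coregulators, 17 tested, edgeR called 2 higher and 1 lower at day 7 and 0 at day 14. The others were Med1 at 0.37 (SE 0.11, edgeR adjusted p = 0.0301) and Rxrb at -0.44 (SE 0.13, edgeR adjusted p = 0.0214). Pparg kept its day 7 call in all alternatives tried. Med1 lost it without the filter, with only the groups compared, without any of the WT day 7 libraries or without KO day 7 replicate 1 or 2, with adjusted p up to 0.181, and Rxrb with only the groups compared or without KO day 7 replicate 1 or WT day 7 replicate 3, with adjusted p up to 0.136. In WT day 7 against day 2, 2 genes of the list were called higher, Ppard and Ppargc1b, and in WT day 14 against day 2, 3 were, where 0.553% and 1.61% of all genes tested were called.

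In the list of 29 genes of mitochondrial oxidation and the carnitine shuttle, all tested, edgeR called 0 at day 2. At day 7 it called 2 higher and 5 lower (17.3% of all genes tested were called), and at day 14 it called 2 higher and 3 lower (7.92% of all genes tested), with medians of -0.09 and 0.02 against 0.02 and 0.0022 over all genes tested. Without WT day 7 replicate 2 the day 7 count was 4. Cpt2 encodes the inner-membrane partner of Cpt1a. It was 54.9, 72.1 and 69.1 CPM in WT day 7 and 30.1, 24.4 and 20.1 CPM in KO day 7, and 43.8, 75.3 and 62.2 CPM in WT day 14 and 19.6, 23.7 and 26.4 CPM in KO day 14. All KO libraries of both days lay below all WT libraries, with log2 fold changes of -1.39 (SE 0.19, edgeR adjusted p = 5.19e-05) and -1.39 (SE 0.19, edgeR adjusted p = 0.000151). Acad10, an acyl-CoA dehydrogenase family gene, was 16.4, 18 and 18.1 CPM in WT day 7 and 5.78, 5.55 and 5.76 CPM in KO day 7. It fell with log2 fold changes of -1.62 (SE 0.14, edgeR adjusted p = 3.53e-07) at day 7 and -1.25 (SE 0.14, edgeR adjusted p = 1.89e-05) at day 14. Acad12 fell at -1.02 (SE 0.21, edgeR adjusted p = 0.00196) at day 7 and -0.73 (SE 0.21, edgeR adjusted p = 0.0341) at day 14. Cpt1b, the muscle-type isoform of Cpt1a, rose at 0.81 (SE 0.23, edgeR adjusted p = 0.0196) at day 7 and 1.16 (SE 0.23, edgeR adjusted p = 0.00362) at day 14. Acsl3, which activates long-chain fatty acids, rose at 0.50 (SE 0.15, edgeR adjusted p = 0.03) at day 7 and 0.81 (SE 0.16, edgeR adjusted p = 0.00252) at day 14. Echs1 and Eci1, which were also lower at day 7 (-0.65 and -0.55), are named after their values were seen. Cpt2 and Acad10 kept their calls at both days in all alternatives tried. The day 7 call of Cpt1b was lost without KO day 7 replicate 3, WT day 7 replicate 2 or WT day 7 replicate 3 (log2 fold change 0.65 to 0.96 over its alternatives, adjusted p up to 0.09). That of Acsl3 was lost with only the groups compared or without KO day 7 replicate 1 or 2 or WT day 7 replicate 1 or 3 (0.41 to 0.67 over its alternatives, adjusted p up to 0.139). The day 14 call of Acad12 was lost with only the groups compared or with a replicate block shared by the days. It was also lost without any of the KO day 14 libraries or WT day 14 replicate 2 or 3. Over its alternatives the log2 fold change was -0.89 to -0.55, with adjusted p up to 0.184. In WT day 14 against day 2, 24 of the 29 were below 0 and 1 was called lower, Acsl5 (-1.29).

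**Figure D3:**
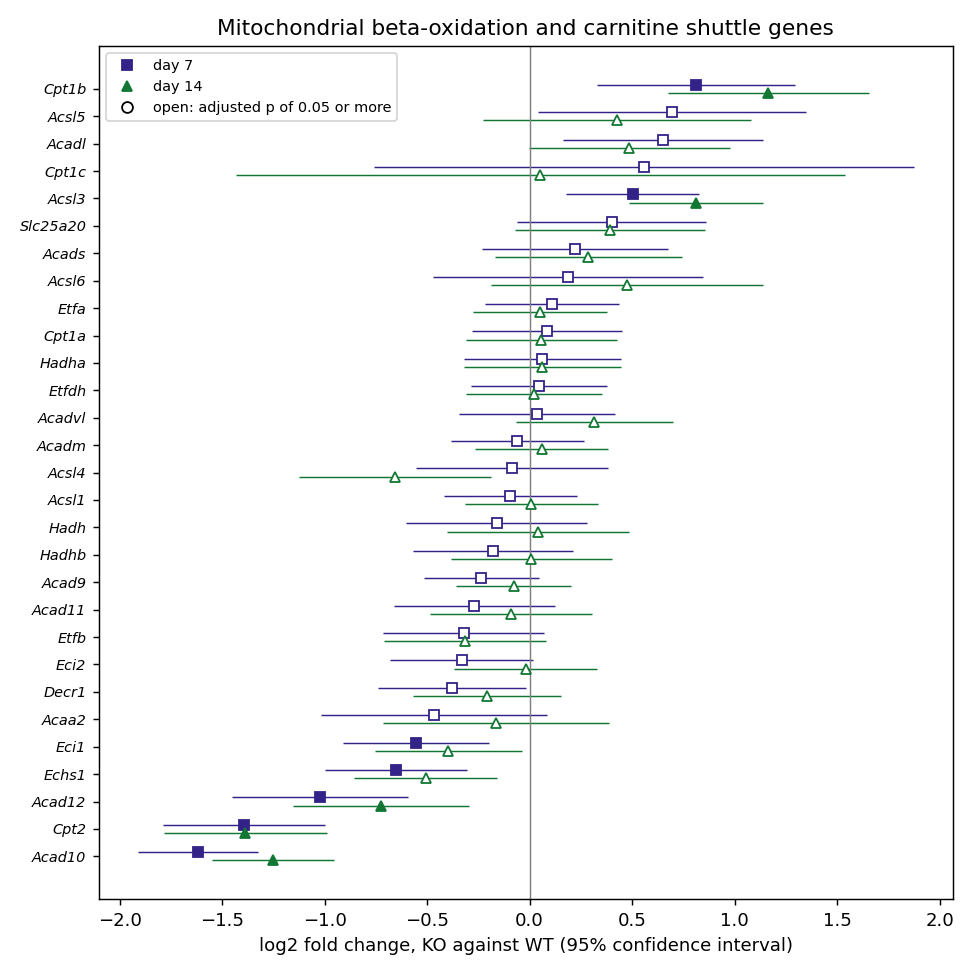
Log2 fold change of KO against WT (x axis) at days 7 and 14 for the 29 genes of mitochondrial oxidation and the carnitine shuttle (y axis), with 95% confidence intervals and filled symbols for called genes. Acad10 and Cpt2 lie lowest at day 7, at -1.62 and -1.39, and Cpt1b highest, at 0.81.

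Among the 24 genes of peroxisomal oxidation, 21 tested, edgeR called 0 higher and 3 lower at day 7 and 0 higher and 1 lower at day 14, where 17.3% and 7.92% of all genes tested were called, with medians of -0.13 and 0.02. Amacr, which racemises branched-chain acyl-CoA, was 12.2, 19.6 and 15.4 CPM in WT day 7 and 4.71, 4.18 and 3.19 CPM in KO day 7. It fell with log2 fold changes of -1.96 (SE 0.22, edgeR adjusted p = 1.07e-05) at day 7 and -1.70 (SE 0.23, edgeR adjusted p = 0.000149) at day 14, with every KO library below every WT library on both days. Pecr fell at -0.80 (SE 0.18, edgeR adjusted p = 0.00376) and Acaa1a, a peroxisomal thiolase, at -0.52 (SE 0.17, edgeR adjusted p = 0.0366) at day 7. The Acaa1a call was lost when any of the 6 day 7 libraries was left out, with adjusted p up to 0.111. In WT day 14 against day 2, 1 gene of the list was called lower, Acox2 (-1.23).

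In the list of 22 other genes known as PPAR alpha targets, 18 tested, edgeR called 6 higher and 2 lower at day 7 and 1 higher at day 14, with medians of 0.46 and 0.68. Fabp1, a fatty acid binding protein of absorptive cells, was 374, 541 and 321 CPM in WT day 7 and 1692, 1074 and 852 CPM in KO day 7, and rose at 1.55 (SE 0.40, edgeR adjusted p = 0.0129). Cidec, a lipid droplet gene that the lipid droplet and adipocyte lists also hold, rose at 1.31 (SE 0.40, edgeR adjusted p = 0.036). Cyp4a32, at a mean of 0.623 CPM, rose at 1.35 (SE 0.46, edgeR adjusted p = 0.0475), and at 2.12 without WT day 7 replicate 1. Cyp4a10, an omega-hydroxylase, fell at -1.71 (SE 0.56, edgeR adjusted p = 0.0425). Its counts were low, at 10 to 17 in KO day 7 and 26 to 48 in WT day 7. Mgll, a monoglyceride lipase, fell at -1.18 (SE 0.26, edgeR adjusted p = 0.00323). Gpd1, a glycerol phosphate dehydrogenase, rose at day 14 at 0.97 (SE 0.27, edgeR adjusted p = 0.0312). Fabp2 and Txnip, also higher at day 7 (1.22 and 0.39), are named after their values were seen, as is Gpd1 at day 7 (0.97). Of these, Mgll kept its call in every alternative. Fabp1 lost it without the filter or without KO day 7 replicate 1 or WT day 7 replicate 1 or 3, with adjusted p up to 0.0734. Cidec lost it without the filter or any day 7 library other than KO day 7 replicate 3, with adjusted p up to 0.126, and Cyp4a10 without the filter or any of the 6, with adjusted p up to 0.111. Cyp4a32 lost it with only the groups compared or with a replicate block shared by the days. Leaving out KO day 7 replicate 1 or 2 or WT day 7 replicate 2 or 3 also ended it (adjusted p up to 0.253). Gpd1 at day 14 lost its call without the filter or with only the groups compared. That call also ended without KO day 14 replicate 2 or 3 or WT day 14 replicate 1 or 3 (adjusted p up to 0.145). In WT day 14 against day 2, 2 genes of the list were called lower, Creb3l3 and Fabp2.

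In the list of 18 lipid droplet and lipolysis genes, which holds Plin2, 16 were tested. EdgeR called 3 higher and 1 lower at day 7 and 1 higher at day 14, with medians of 0.08 and 0.08. G0s2, an inhibitor of the main triglyceride lipase, was 0.504, 0.447 and 0.394 CPM in WT day 7 and 16.1, 5.23 and 5.15 CPM in KO day 7. It was 0.227, 0.711 and 0.417 CPM in WT day 14 and 3.21, 9.02 and 4.92 CPM in KO day 14, and rose with log2 fold changes of 4.27 (SE 0.56, edgeR adjusted p = 6.63e-05) and 3.54 (SE 0.57, edgeR adjusted p = 0.000763). Abhd5, the activator of that lipase, rose at 0.68 (SE 0.17, edgeR adjusted p = 0.00791) at day 7, a call lost without KO day 7 replicate 1 (adjusted p = 0.0505). In WT day 14 against day 2, Dgat2 was called lower (-1.78).

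The list of the pyruvate dehydrogenase complex, which holds Pdk4, has 12 genes, all tested. EdgeR called 0 higher and 3 lower at day 7 and 0 higher and 2 lower at day 14, with medians of 0.15 and 0.02. Pdk1, another kinase of the complex, was 43.6, 57.8 and 43.5 CPM in WT day 7 and 25, 26.9 and 22.9 CPM in KO day 7. It fell with log2 fold changes of -0.95 (SE 0.13, edgeR adjusted p = 4.98e-05) at day 7 and -0.87 (SE 0.13, edgeR adjusted p = 0.000288) at day 14. Pdpr, a regulator of the phosphatase, fell at -0.53 (SE 0.10, edgeR adjusted p = 0.00143) and -0.59 (SE 0.10, edgeR adjusted p = 0.00122). Pdk2 fell at -0.60 (SE 0.20, edgeR adjusted p = 0.0452) at day 7, a call lost without any day 7 library other than KO day 7 replicate 3, with adjusted p up to 0.153. Pdk1 and Pdk2 are kinases of the family of Pdk4. The Pdk4 log2 fold change at day 7 was 0.94, with overlapping groups, and was not called (edgeR adjusted p = 0.275).

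In the list of 10 genes around lipoprotein lipase, which holds Angptl4, 9 were tested. EdgeR called 1 higher and 1 lower at day 7 and 1 higher at day 14, with medians of 0.31 and 0.34. Angptl8 rose at 1.27 (SE 0.26, edgeR adjusted p = 0.00252) at day 7 and 1.22 (SE 0.28, edgeR adjusted p = 0.0105) at day 14, the second lost without WT day 14 replicate 3 (adjusted p = 0.0505). Lmf1, a factor for the folding of the lipase, fell at -0.75 (SE 0.13, edgeR adjusted p = 0.000567) at day 7. Angptl4 was the most abundant gene of this list per length. Gpihbp1 was at 0 in all 18 libraries.

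Among the 14 fatty acid synthesis genes, 13 tested, edgeR called 4 higher and 1 lower at day 7 and 2 higher and 1 lower at day 14, with medians of 0.42 and 0.38. Scd1, a stearoyl-CoA desaturase, was 6.94, 14.6 and 14.9 CPM in WT day 7 and 509, 153 and 105 CPM in KO day 7. It was 14.3, 12.8 and 9.31 CPM in WT day 14 and 91.2, 138 and 157 CPM in KO day 14. The log2 fold change was 4.41 (SE 0.55, edgeR adjusted p = 0.000114) at day 7 and 3.41 (SE 0.53, edgeR adjusted p = 0.00129) at day 14, with all KO libraries above all WT libraries on both days. Me1, which supplies NADPH, rose at 1.86 (SE 0.28, edgeR adjusted p = 0.000246) and 1.17 (SE 0.28, edgeR adjusted p = 0.0148). Scd2 rose at 1.16 (SE 0.34, edgeR adjusted p = 0.0272) at day 7 and Mcat, a mitochondrial transferase, fell at -1.20 (SE 0.22, edgeR adjusted p = 0.000797) and -0.86 (SE 0.22, edgeR adjusted p = 0.0186). Acly, higher at day 7 (0.42), is named after its value was seen. The Scd2 call was lost without the filter or without KO day 7 replicate 1 or WT day 7 replicate 2 or 3, with adjusted p up to 0.155. The day 14 calls were lost without the filter or KO day 14 replicate 3 for Me1, with adjusted p up to 0.0623, and without KO day 14 replicate 1 or 2 or WT day 14 replicate 2 for Mcat, with adjusted p up to 0.114. In WT, Scd2 was called higher at day 7 and day 14 against day 2, and Acaca at day 14, the day 7 call not holding without WT day 2 replicate 1 or WT day 7 replicate 3, where 0 genes were called.

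Cell type markers moved between the same groups, and their part in the results above was not tested. Of 8 enteroendocrine markers, edgeR called 8 higher at day 7 and 8 higher at day 14, with Chgb the most abundant per length. Their summed level was 295, 275 and 289 CPM in WT day 7 and 805, 678 and 645 CPM in KO day 7, and 256, 313 and 262 CPM in WT day 14 and 854, 882 and 741 CPM in KO day 14. Of 5 Paneth cell markers, 5 were called lower at day 7 and 1 at day 14, Ang4, with Defa24 the most abundant per length. Their summed level was 10930, 8767 and 14650 CPM in WT day 7 and 1384, 3893 and 3705 CPM in KO day 7, and 19990, 11720 and 9033 and 6985, 7126 and 5389 CPM at day 14. Of 6 stem cell markers, 4 were called lower at day 7 and 1, Smoc2, at day 14, with Olfm4 the most abundant per length. Their summed level was 1995, 2315 and 1704 CPM in WT day 7 and 459.8, 1039 and 1086 CPM in KO day 7, and 2172, 2118 and 2327 and 1861, 1632 and 1573 CPM at day 14. Of 12 enterocyte markers, 11 were above 0 at day 7, with a median of 0.52 and 1 called lower, Lct, and 10 were above 0 at day 14, with a median of 0.70 and 1 called higher, Sis. None of these lists had a gene called at day 2, and of the 6 crypt epithelium markers 0 were called at any of the 3 days. Of 6 goblet cell markers, 2 were called lower at day 7, Clca1 and Fcgbp, and 1 at day 14, Clca1, and Tff3 was the most abundant per length. Of 4 tuft cell markers tested, 1, Dclk1, was lower at day 7, and 0 at day 14. Of 5 proliferation markers, 0 were called at day 7 and 1, Top2a, was lower at day 14. Of 12 immune markers 0 were called, and of 9 stromal markers tested 1, Pecam1, was higher at day 7. Lyz2 averaged 13.8 CPM and Col3a1 25 CPM. Of the 7 adipocyte markers only Cidec was tested and called, at day 7. The other adipocyte markers were near 0, Fabp4 at 0.0479 CPM, Plin1 at 0.0313 CPM, Cfd at 0.0656 CPM and Retn at 0.0172 CPM.

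The genes most alike to each of the 8 in level over the 18 libraries are given as a description, with Pearson's r of log2 CPM and no test, since libraries of 1 group share their genotype and day. For Cpt1a they were Pex11a (r = 0.89), Kctd5 (0.89) and Tmem54 (0.88). For Acadm they were Ppm1a (0.97), Hadh (0.96) and Cat (0.95), and for Hadha Aldh9a1 (0.95), Suclg1 (0.94) and Ckmt1 (0.94). For Acaa2 they were Fahd1 (0.96), Fdx1 (0.95) and Decr1 (0.95), and for Ehhadh Aco1 (0.96), Fahd1 (0.96) and Ubb (0.95). For Pdk4 they were Plekhf1 (0.91), Sec14l2 (0.90) and Gm8909 (0.90). For Angptl4 they were Mical1 (0.90), Osgin1 (0.87) and Pi4k2a (0.86), and for Plin2 Aldh3a2 (0.93), Pex11a (0.91) and Atp5l (0.90). Fahd1 stood on the lists of both Acaa2 and Ehhadh, and Pex11a, a peroxisomal gene, on those of Cpt1a and Plin2.

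PPAR alpha is known to bind, with RXR, a direct repeat of AGGTCA with 1 base between the copies. The promoters are printed to show where these letters stand in the genes whose levels are described. RefSeq promoters (GRCm38.p6, 250 bases before to 50 after the start) were found for 6 of the 8 genes, and none for Acaa2 and Angptl4. AGGTCA was searched on both strands and stood in 3 of the 6, Cpt1a, Acadm and Plin2, and in 16.3% of all 32841 promoters in the table. The direct repeat with at most 2 letters different stood in 1 of the 6, Plin2, and in 3.86% of all promoters. In Plin2 the AGGTCA match is part of the repeat. The Hadha, Ehhadh and Pdk4 windows hold neither AGGTCA nor the repeat. The 3 promoters that hold AGGTCA are shown 5′ to 3′, with the matched letters in capitals. They lie at chr19:3323051-3323350 on the plus strand for Cpt1a, at chr3:153944594-153944893 on the minus strand for Acadm, and at chr4:86670010-86670309 on the minus strand for Plin2. In Plin2 the capitals mark the direct repeat.
Cpt1a: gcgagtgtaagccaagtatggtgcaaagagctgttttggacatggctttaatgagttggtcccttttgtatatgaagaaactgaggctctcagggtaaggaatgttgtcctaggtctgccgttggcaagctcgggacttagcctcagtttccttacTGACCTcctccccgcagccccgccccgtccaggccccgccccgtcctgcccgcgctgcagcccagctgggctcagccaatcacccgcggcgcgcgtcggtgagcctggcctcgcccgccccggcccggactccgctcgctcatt
Acadm: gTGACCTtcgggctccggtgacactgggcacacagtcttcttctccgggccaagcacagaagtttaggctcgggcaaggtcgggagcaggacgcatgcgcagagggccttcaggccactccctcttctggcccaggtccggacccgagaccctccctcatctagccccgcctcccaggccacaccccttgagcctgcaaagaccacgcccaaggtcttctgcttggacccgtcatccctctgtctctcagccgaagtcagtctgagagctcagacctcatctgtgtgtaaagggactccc
Plin2: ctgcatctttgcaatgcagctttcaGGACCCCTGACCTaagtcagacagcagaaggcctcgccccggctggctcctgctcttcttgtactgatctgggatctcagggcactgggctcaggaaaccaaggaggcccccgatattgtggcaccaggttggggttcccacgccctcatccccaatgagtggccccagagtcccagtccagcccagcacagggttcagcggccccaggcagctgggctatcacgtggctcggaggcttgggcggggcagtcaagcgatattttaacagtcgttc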

How the data were processed

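Counts per gene of 18 ribosome-depleted RNA libraries were those the authors deposited, raw counts made with STAR 2.7.3 and featureCounts 1.6.4 on mm10 (GENCODE 23 in the file header, where the methods name another release). The deposited count is a count of reads per gene. The depth was 12844642 to 31493484 counts per library. Differences are given with SE, or 95% confidence intervals from SE and total degrees of freedom, with 3 mice a group. Their spread is estimated over all 18 libraries in the model below. In R 4.3.3, edgeR 4.0.16 (limma 3.58.1) fitted 1 quasi-likelihood model with robust dispersion over all 6 groups, after trimmed-mean scaling and filterByExpr. The 20 genes of the study's sex-difference table were left out, since sex is not given per library. The study used mice of both sexes, and leaving these genes out does not adjust the others for sex. P values were adjusted by Benjamini-Hochberg over 21349 genes, with a threshold of 0.05. There were 9 comparisons. With 3 against 3 animals an exact permutation test cannot go below p = 0.1, so no such test was run for single genes. CPM uses scaled library sizes, and log2 CPM for likeness a prior count of 2. DESeq2 1.42.0 and other settings (size factors, the 20 most abundant genes left out, no filter, a mean count of at least 50, sex-table genes kept, only the groups compared, a replicate block, each library left out) were alternatives. Figures were drawn with matplotlib 3.10.9 in Python 3.11.15. Code was tested on simulated data.

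Genes were named by a rule: the 8 genes, Prmt1, Ppara, Ppard, Pparg, Ppargc1a and Rxra, and from each pathway list the 3 largest increases and decreases among genes called at day 7 or 14. Hadhb, as the neighbour of Hadha, and list genes called only in WT were named outside this rule. For likeness the 3 genes with the highest correlation were named. The 9 pathway lists were mitochondrial oxidation, ketone bodies, peroxisomal oxidation, other PPAR alpha targets, receptors and coregulators, lipid droplet and lipolysis, pyruvate dehydrogenase, lipoprotein lipase and fatty acid synthesis. The 11 marker lists were crypt epithelium, stem, proliferation, enterocyte, goblet, Paneth, tuft, enteroendocrine, immune, stroma and adipocyte. The 8 genes and the lists were chosen with earlier results of these data known. Some genes of the lists are not reported here.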

Additional observations from a re-analysis of the deposited data

Results flagged for a closer look

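In the genes taken by the naming rule and the most abundant gene of each marker list, 53 in all, the KO effect was tested for a difference between days. The difference passed for 11 of them, and none was one of the 8 genes. Over all genes tested it passed for 4.37% from day 2 to day 7 and for 1.04% from day 2 to day 14. Many of the 53 were taken because they were called at day 7 or 14, so the count describes these genes alone. From day 2 to day 7 the log2 KO effect differed by -1.11 for Cpt2 (edgeR adjusted p = 0.0194), -1.40 for Acad10 (0.000351) and -1.86 for Amacr (0.00174). It differed by 4.51 for G0s2 (adjusted p = 0.00402), 4.64 for Scd1 (0.00456) and 2.11 for Me1 (0.00576). It differed by -0.68 for Pdk1 (adjusted p = 0.0356), 1.43 for Angptl8 (0.0376), -0.72 for Lmf1 (0.0315), -1.16 for Mcat (0.0351) and 1.23 for Chgb (0.0155). From day 2 to day 14 it differed by -1.11 for Cpt2 (adjusted p = 0.046), -1.03 for Acad10 (0.0107), -1.60 for Amacr (0.0143), 3.78 for G0s2 (0.0268), 3.64 for Scd1 (0.0366) and 1.43 for Chgb (0.0134). For Pdk1, Angptl8, Lmf1 and Mcat the day 7 difference was lost in 9 to 11 of 20 alternatives, for Cpt2 in 3, and for the day 14 differences of Cpt2, G0s2 and Scd1 in 9 to 14 of 20. That of Amacr at day 14 was lost without KO day 14 replicate 1 (adjusted p = 0.0545). With a replicate block within each day, the day 7 differences of Scd1 (adjusted p = 0.0572) and Angptl8 (0.0648) and the day 14 difference of Scd1 (0.156) did not pass.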

How the results depend on the processing

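The log2 fold changes of the 8 genes kept their direction in KO against WT in every setting that kept all libraries, and directions turned only when a library was left out. Over those fits the range was -0.22 to 0.014 for Cpt1a and -0.78 to 0.062 for Angptl4 at day 2. At day 7 it was -0.068 to 0.26 for Cpt1a, -0.13 to 0.085 for Acadm, -0.069 to 0.22 for Hadha and -0.0295 to 0.57 for Plin2. At day 14 it was -0.024 to 0.15 for Cpt1a, -0.071 to 0.19 for Acadm, -0.088 to 0.22 for Hadha, -0.42 to 0.20 for Acaa2, -0.35 to 0.16 for Ehhadh and -0.19 to 0.20 for Plin2. In the fit without WT day 14 replicate 1, chosen after seeing the data, WT day 14 against day 7 turned to 0.10 for Acadm, 0.0901 for Hadha, 0.13 for Acaa2 and 0.0599 for Plin2. Of the 8 genes, 1 was called at day 7 by DESeq2, in the fit of genes averaging 50 counts or more, with only the groups compared and with either replicate block, 1 in WT day 7 against day 2 by DESeq2 and without the filter, and 0 to 1 in WT day 14 against day 2 over the fits without a library. The count of all genes called at day 2, 7, was 13 by DESeq2, 16 without the filter, 2 among genes averaging 50 counts or more, 3 with only the groups compared, and 3 to 4 without a library. Without a library the counts were 2051 to 4117 at day 7, 1041 to 1334 at day 14, 431 to 1295 for day 7 minus day 2, 111 to 222 for day 14 minus day 2, 0 to 2 for day 14 minus day 7, 0 to 535 for WT day 7 against day 2, 22 to 712 for WT day 14 against day 2 and 0 to 10 for WT day 14 against day 7. The mitochondrial list had 4 to 7 genes called at day 7 without a library. DESeq2 called 1402 genes for day 7 minus day 2, 509 for day 14 minus day 2, 2 for day 14 minus day 7, and in WT 1511, 1383 and 49 for day 7 against 2, 14 against 2 and 14 against 7. Without the filter these were 433 for day 14 minus day 2, 2 for day 14 minus day 7, and 1012, 1011 and 59 in WT. WT day 7 against day 2 gave 288 without the 20 most abundant genes, 494 among genes averaging 50 counts or more and 576 with only the groups compared. WT day 14 against day 2 gave 770 and 28 in the latter settings, and WT day 14 against day 7 gave 4 with only the groups compared. The labels do not tie mice of the same replicate number to each other. Deviations from the group means of same-numbered KO and WT libraries correlated at 0.048 to 0.38 at day 2 and -0.16 to 0.21 at day 7, where 2 and 1 of 3 were over 0.1. At day 14 all 3 were, at 0.16 to 0.23, other pairs were at -0.15 to -0.036, and every library matched its own number best, a hint from the data and not from the design. Deviations within a group sum to 0, so positive same-number values bring negative values in other pairs, which add no evidence of their own. A replicate block shared by the days gave 3 genes at day 2, 19, 173 and 5 in the WT comparisons, and no call of Prmt1 at day 2, Cyp4a32 at day 7 or Acad12 at day 14. A replicate block within each day, chosen after seeing the data, gave 8, 4225 and 2106 genes at days 2, 7 and 14, with 0, 1 and 0 of the 8 and 0, 8 and 6 of the mitochondrial list, and 1366, 353 and 1 for day 7 minus 2, 14 minus 2 and 14 minus 7. The called list genes were run through the same alternatives, chosen after seeing the data: 15 of 28 calls at day 7 and 9 of 14 at day 14 held in all, and none turned. Marker genes other than Chgb, list genes called only in WT and genes named after their values were seen were not run one by one. The cause was not tested. Pdk4 had 44 counts in its lowest library and a coefficient of variation of 55.5% over the 18 libraries. Whether depth limits the low genes was not tested.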
